A study of Drosophila melanogaster with 24 samples.

Results

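Ecdysone response genes are genes that change their transcription when the moulting hormone 20-hydroxyecdysone reaches a tissue. A set of 10 such genes was described here in Drosophila in which lysine 9 of histone H3 had been replaced by arginine (K9R), namely ImpE1, ImpE2, ImpE3, ImpL2, Hr4, Eip74EF, Eip75B, EcR, br and ftz-f1. The RNA tables give loci, not gene names, and a locus was taken as a gene when the pair shared at least 50% of their joint span on the dm6 assembly. By this rule 8 of the 10 genes were found among 10253 RNA loci. All 10 had open-chromatin regions, 138 of 19738 regions in all. The genes were listed by name, with no threshold on a measured value, though with earlier results of these data known.

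The hormone enters cells, binds the nuclear receptor EcR with its partner usp, and first switches on a small group of transcription factor genes, among them br, Eip74EF and Eip75B. Those factors, with later receptors such as Hr4 and ftz-f1, time the next steps and act on tissue-specific targets that build and shed cuticle. The Imp genes were found as hormone-induced messages of imaginal discs, in which several encode secreted or cell-surface proteins of the apical surface. Lysine 9 of H3 carries the methyl mark of heterochromatin, and arginine cannot take that mark.

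RNA was sequenced from whole 1st instar larvae of 4 genotypes, with 3 libraries each. In all of these larvae the endogenous canonical histone genes were deleted and replaced by a transgenic array of 12 copies. The control, HWT, had an array of wild-type genes, and H3.2-K9R (the canonical mutant, plotted as canonical K9R) had an array with K9R. H3.3-K9R_H3.2-HWT (the H3.3 mutant) joined loss of H3.3A and a K9R change in H3.3B to the wild-type array, and H3.3-K9R_H3.2-K9R (the combined mutant) joined both to the K9R array. FAIRE, an assay of open chromatin in which DNA free of nucleosomes escapes formaldehyde crosslinking and is recovered, was done on imaginal wing discs of wandering 3rd instar larvae. Its 4 genotypes, again of 3 libraries each, were yw (WT), H3.3A-null, H3.3B-K9R and their double mutant H3.3-K9R, all with their own canonical histone genes. Stage, tissue and genotype therefore all differ between the assays. FAIRE of larvae with a histone array was not analysed here, so the assays are set side by side and not joined.

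The values are those of the authors' deposited tables, each a DESeq2 comparison of one genotype over another, with no value of a single library, so depth and spread per library are unknown. Fold changes below are log2 values, followed by ± and the authors' standard error, and a gene or region was called when the authors' adjusted p was under 0.05. Whether the replicates came from separate animals or cultures is not stated, and the p-values rest on the spread between these libraries as the authors' model estimated it. The locus of His3.3A, deleted in the H3.3 mutants, also holds Nepl3 and stood at −0.34 ± 0.21 in the canonical mutant, which keeps the gene (adjusted p = 0.696), −0.55 ± 0.21 in the H3.3 mutant (adjusted p = 0.132) and −0.82 ± 0.21 in the combined mutant (adjusted p = 8.36e-04) in the authors' deposited table. The authors' deposited tables had the disc region at His3.3A at −1.31 ± 0.19 for H3.3A-null and −1.66 ± 0.20 for the double mutant, both called. The tissue labels were set against markers. All 10 wing disc genes listed had FAIRE regions, 76 in number, against 1 of 5 genes of other tissues, 4 of 7 neuron genes, 3 of 9 muscle, 3 of 9 fat body, 3 of 5 prothoracic gland, 1 of 11 midgut and 0 of 7 salivary gland genes. In whole larvae the 11 midgut, 8 muscle and 7 neuron loci had mean normalised counts of 90.5 or more, and the 2 prothoracic gland loci 112 or more. Medians were lower at other markers, 15.2 over 7 fat body loci and 7.91 over 4 salivary gland loci, with a wide range within each list. The fat body loci ran from 1.63 to 8247 and the salivary gland loci from 1.24 to 384.

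Of the 8 genes with RNA loci, the 2 target genes fell and 4 of the 6 regulators rose in at least 1 mutant. ImpE2 fell by 3.61- to 4.67-fold in every K9R mutant, and ImpE1 fell in the combined mutant. The regulators Hr4, Eip74EF, EcR and ftz-f1 rose in the combined mutant, and of these Hr4 rose in the H3.3 mutant as well. In the canonical mutant the authors' deposited table called 1 of the 8 genes, against 3.55% of 8123 loci tested. In the H3.3 mutant it called 2 of 8, against 4.31% of 7634 loci. In the combined mutant the authors' deposited table called 6 of 8, against 25.0% of 7634 loci, and 26.1% of loci with a mean count in the genes' own range were called there.

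By direction, the single canonical call was lower (background 0.505% lower and 3.04% higher). The calls in the H3.3 mutant were 1 higher and 1 lower (background 2.66% higher and 1.65% lower). Those in the combined mutant were 4 higher and 2 lower (background 11.4% higher and 13.6% lower). The median log2 fold change of the 8 genes was 0.02, −0.06 and 0.30 in the canonical, H3.3 and combined mutants, beside −0.005, −0.01 and 0.003 for all loci. The 3 comparisons share the HWT libraries, so a high or low value in those libraries enters each of them.

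**Figure D1:**
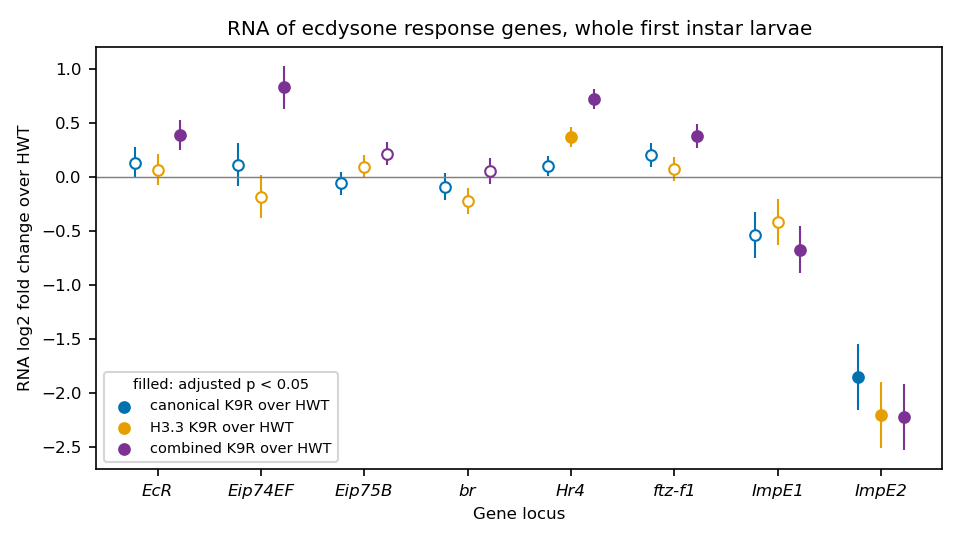
RNA log2 fold change over HWT of each ecdysone response gene in canonical K9R, H3.3 K9R and combined K9R, with bars of 1 standard error from the authors' deposited table and filled points for adjusted p under 0.05. ImpE2 lies near −2 in each mutant, while Hr4, Eip74EF, EcR and ftz-f1 lie above 0 in combined K9R, between 0.38 and 0.83.

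ImpE2 (3L, 3510974 to 3512681) was the gene of the set with the largest fold changes and the lowest mean count. Its mean normalised count over the 12 RNA libraries was 42.5 in the authors' deposited table. From that mean and the deposited fold changes, the counts implied for the genotypes were 99.5 in HWT, 27.6 in the canonical mutant, 21.6 in the H3.3 mutant and 21.3 in the combined mutant. By these counts the control stood alone, and the mutants lay close to each other. All 3 comparisons use the HWT libraries, so low values in the mutants cannot be told apart from a high value particular to those libraries. Where the deposited fold changes are shrunk towards 0, implied counts are not group means and may understate such a gap. ImpE2 fell by 1.85 ± 0.31 in the canonical mutant in the authors' deposited table, 3.61-fold (adjusted p = 1.36e-07). It fell by 2.20 ± 0.31 in the H3.3 mutant, 4.60-fold (adjusted p = 1.36e-10), and by 2.22 ± 0.30 in the combined mutant, 4.67-fold (adjusted p = 1.26e-11), in the authors' deposited tables. Among 10072 loci with a p-value these were the lowest, 4th lowest and 6th lowest fold changes.

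The ImpE2 responses of the mutants could not be told apart. The H3.3 and canonical mutants differed by −0.35 ± 0.43 (95% interval −1.20 to 0.49), and the combined and H3.3 mutants by −0.02 ± 0.43 (−0.87 to 0.82). The combined and canonical mutants differed by −0.37 ± 0.43 (−1.22 to 0.47). These intervals treat the comparisons as independent and leave room for differences of about 1 on the log2 scale. The standard errors of ImpE2 lie next to the highest of any RNA locus, 0.306. Its intervals and p-values may therefore not show the spread of its own libraries. The authors' deposited tables called 101 loci in all 3 mutants, of 7634 tested, and 95 of them were higher and 5 lower in each, with mixed directions at the remaining locus. Of those 5 loci, 3 fell by more than 1 on the log2 scale in every mutant: ImpE2, mas and the serpin gene Spn100A. The gene mas encodes a serine protease homologue of cell adhesion and had a low mean count, 15.2.

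ImpE1 (3L, 8372405 to 8391171), which encodes a protein with repeats of the kind found in the LDL receptor, had a mean count of 109 in the authors' deposited table. The implied counts were 142 in HWT, 97.9 in the canonical mutant, 107 in the H3.3 mutant and 88.9 in the combined mutant, with HWT again the highest. It fell by 0.67 ± 0.22 in the combined mutant (adjusted p = 0.0121) in the authors' deposited table. In the canonical mutant it stood at −0.53 ± 0.22 (adjusted p = 0.241) and in the H3.3 mutant at −0.41 ± 0.21 (adjusted p = 0.448) in the authors' deposited tables, neither called. Its value in the combined mutant differed from the canonical one by −0.14 ± 0.31 and from the H3.3 one by −0.26 ± 0.31, so a fall of the same size in the single mutants lies within these errors.

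Hr4 (X, 1941940 to 2007956) encodes a nuclear receptor that represses early genes and is needed for ftz-f1 to be switched on. Its locus spans 97.9% of the joint length and also holds PIG-K and CR46447. The implied counts were 749 in HWT, 804 in the canonical mutant, 970 in the H3.3 mutant and 1240 in the combined mutant. HWT was lowest and the combined mutant highest, with the canonical mutant close to the control. In the authors' deposited tables Hr4 stood at 0.10 ± 0.09 in the canonical mutant (adjusted p = 0.882). It rose by 0.37 ± 0.09 in the H3.3 mutant (adjusted p = 0.00217) and by 0.73 ± 0.09, 1.65-fold, in the combined mutant (adjusted p = 1.8e-13) in the authors' deposited tables. The combined value was above the canonical one by 0.62 ± 0.13 (adjusted p = 3.3e-04), and above the H3.3 one by 0.35 ± 0.13 (adjusted p = 0.121). With the shared control taken out of the error, the last difference passed the threshold (adjusted p = 0.00231).

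Eip74EF (3L, 17558672 to 17619325) encodes an ETS-domain transcription factor of the early response. Its mean count was 114 in the authors' deposited table, and the implied counts were 96.1 in HWT, 104 in the canonical mutant, 84.7 in the H3.3 mutant and 171 in the combined mutant. The combined mutant stood alone above the other genotypes. Eip74EF rose by 0.83 ± 0.20, 1.78-fold, in the combined mutant (adjusted p = 2.85e-04) in the authors' deposited table. It stood at 0.11 ± 0.20 in the canonical mutant and −0.18 ± 0.20 in the H3.3 mutant (adjusted p = 0.959 and 0.870) in the authors' deposited tables. The combined value exceeded the H3.3 value by 1.01 ± 0.28 (adjusted p = 0.0142) and the canonical value by 0.72 ± 0.28 (adjusted p = 0.284). The second difference passed with the shared control taken out of the error (adjusted p = 0.00887).

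The receptor gene and the competence factor moved less. EcR (2R, 6087873 to 6169087) rose by 0.39 ± 0.14, 1.31-fold, in the combined mutant (adjusted p = 0.0283) in the authors' deposited table, where its mean count was 1401. It stood at 0.13 ± 0.14 in the canonical mutant and 0.07 ± 0.14 in the H3.3 mutant in the authors' deposited tables. The EcR locus also spans several tRNA genes and CG14589. Next, ftz-f1 (3L, 18750607 to 18801309), which encodes the receptor that makes tissues competent for a later hormone pulse, rose by 0.38 ± 0.11, 1.30-fold, in the combined mutant (adjusted p = 0.00421) in the authors' deposited table. It stood at 0.21 ± 0.11 in the canonical mutant and 0.08 ± 0.11 in the H3.3 mutant, with a mean count of 2256, in the authors' deposited tables. For both genes the implied count was lowest in HWT and highest in the combined mutant. Neither gene had a difference between mutants past the threshold, except that ftz-f1 differed between the combined and H3.3 mutants, by 0.31, with the shared control taken out of the error (adjusted p = 0.0490).

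The other early regulators were not called in any mutant. Eip75B (3L, 17950953 to 18064696), which encodes a haem-binding nuclear receptor that blocks Hr3, had the highest mean count of the set, 4108, in the authors' deposited table. It stood at −0.06 ± 0.10, 0.10 ± 0.10 and 0.22 ± 0.10 in the canonical, H3.3 and combined mutants in the authors' deposited tables, the last with adjusted p = 0.115. The next highest mean count, 3585, was that of br (X, 1575132 to 1664869), which encodes a family of BTB zinc finger proteins. It stood at −0.09 ± 0.12, −0.22 ± 0.12 and 0.05 ± 0.12 in that order, again from the authors' deposited tables. The br locus was the match nearest to the limit, at 61.6% of the joint span, and reads of Mur2B, which spans all of br, and of dor and CG3740 are not separated from it.

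The genes outside the limit were ImpL2 and ImpE3, well below it at 28.8% and 5.69% of their loci's joint span. ImpL2 (3L, 4224006 to 4236147), which encodes a secreted antagonist of insulin-like peptides, shares its locus with the cuticle genes Cpr64Aa to Cpr64Ad among others. That locus stood at 0.04 ± 0.16, −0.39 ± 0.16 (adjusted p = 0.183) and −0.10 ± 0.16 in the canonical, H3.3 and combined mutants in the authors' deposited tables. ImpE3 (3R, 8028453 to 8029546) is a small part of a locus with Pbp95, CG2747, CG10903 and CG11035, which stood at −0.06, 0.07 and 0.09, each ± 0.10, in the authors' deposited tables. The RNA of these genes on their own is therefore not known, and they are left out of the counts.

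Tests of the differences between mutants across 10072 loci called few of the genes. The combined and canonical mutants differed for 1 of 8 genes, Hr4, against 1.58% of loci. The combined and H3.3 mutants differed for 1 of 8, Eip74EF, against 3.42% of loci. The H3.3 and canonical mutants differed for 0 of 8, with 1 gene at an unadjusted p under 0.05 by the same z-test, against 1.19% of loci called. That gene was Hr4, at 0.27 ± 0.13 (adjusted p = 0.951).

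The design crosses canonical and H3.3 K9R, so the combined mutant can be set against the sum of the single ones. The excess over that sum was positive for each of the 8 genes, with a median of 0.26 beside 0.01 for all loci, and HWT enters this value for every gene. None of the 8 passed the z-test across all loci, where 0.149% of loci did, and 2 had an unadjusted p under 0.05. For ImpE2 the single mutants summed to −4.05 against −2.22 in the combined mutant, an excess of 1.83 ± 0.53 (adjusted p = 0.194). With the shared control taken out of the error its adjusted p was 0.00840. For Eip74EF the sum was −0.07 against 0.83, an excess of 0.90 ± 0.34 (adjusted p = 0.708). Where the deposited fold changes are shrunk towards 0, a sum of them is shrunk as well.

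**Figure D2:**
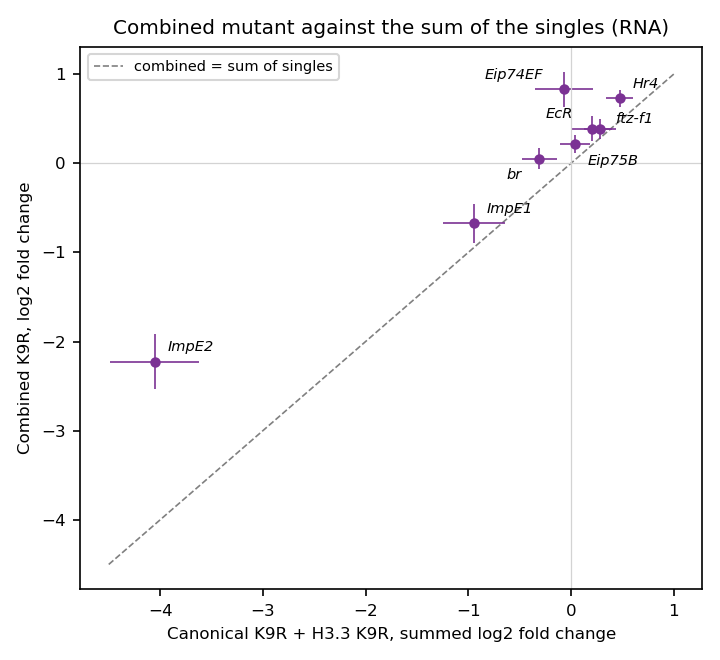
RNA log2 fold change of each of 8 ecdysone response genes in combined K9R against the sum of its values in canonical K9R and H3.3 K9R, with bars of 1 standard error taken as independent. Every point lies above the dashed line of equality, ImpE2 by 1.83 and Eip74EF by 0.90.

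The loci most like ImpE2 were sought by Euclidean distance over its 3 log2 fold changes, among 6894 named loci whose mean count was 10 or more. The nearest were Antdh (distance 1.38), mas (1.50) and the midgut protease gene Jon66Ci (1.57). Next came nw, which encodes a C-type lectin domain protein of the apical matrix (1.71), and the fucosyltransferase gene FucTC (1.73). Antdh and mas had mean counts of 10.5 and 15.2, near the minimum of 10 set for the search. In the canonical mutant none of the nearest loci reached the −1.85 of ImpE2, and mas came closest at −1.37 ± 0.29 in the authors' deposited table. The authors' deposited table put Jon66Ci at −2.31 ± 0.26 and nw at −2.10 ± 0.30 in the combined mutant, both called. Jon66Ci starts at 8391540 on 3L, just past the end of ImpE1.

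Other genes of the hormone pathway were described from lists chosen with earlier results of these data known. Receptors and early regulators other than the genes above had 17 loci, 16 of them tested. In the combined mutant the authors' deposited table called 1 of them higher, the kinase gene Eip63E at 0.73 ± 0.13, which was called in the canonical mutant too at 0.40 ± 0.13 (adjusted p = 0.0473). It called 3 lower, Eip55E at −0.83 ± 0.19, Eip63F-1 at −0.38 ± 0.11 and the transporter gene E23 at −0.54 ± 0.16. These 4 calls of 16 equal the 25.0% called over all loci. In the H3.3 mutant the authors' deposited table called 0 of 16, beside 4.31% of all loci, with 2 at an unadjusted p under 0.05. The list's median fold change was −0.12, −0.21 and 0.03 in the canonical, H3.3 and combined mutants.

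Genes of hormone uptake, coregulators and juvenile hormone receptors had 10 loci. In the combined mutant the authors' deposited table called 3 of 10, beside 25.0% of all loci, with 2 higher, the ecdysone importer gene Oatp74D at 0.52 ± 0.15 and the juvenile hormone receptor gene Met at 0.50 ± 0.15, and 1 lower, the nuclear pore gene Nup358 at −0.84 ± 0.24. In the canonical and H3.3 mutants 0 of 10 were called, beside 3.55% and 4.31% of all loci, and 2 and 0 had an unadjusted p under 0.05. Ecdysteroid synthesis had 7 loci, with 5 tested in the canonical mutant and 4 in each other mutant. The authors' deposited tables called 1, 0 and 2 higher in the canonical, H3.3 and combined mutants, and 0 lower. Over all loci 3.04%, 2.66% and 11.4% were called higher. The gene nvd (3L, 24324866 to 24401655), of the first step of the synthesis, rose by 0.49 ± 0.11 in the canonical mutant (adjusted p = 8.22e-04) and by 0.64 ± 0.11 in the combined mutant in the authors' deposited tables. Npc1a, which moves sterol out of endosomes, rose by 0.56 ± 0.16 in the combined mutant (adjusted p = 0.00305) in the authors' deposited table.

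Late and tissue-specific targets had 18 loci with low counts in these larvae, with a median mean count of 5.59, and 8 or 9 of them were tested. The small heat shock gene Hsp27 fell by 1.04 ± 0.29 in the canonical mutant (adjusted p = 0.0133) and by 1.38 ± 0.29 in the H3.3 mutant (adjusted p = 1.54e-04), and stood at −0.60 ± 0.29 in the combined mutant (adjusted p = 0.121), in the authors' deposited tables. In the combined mutant the lactate dehydrogenase gene ImpL3 fell by 0.65 ± 0.14 and Hsp22, another small heat shock gene, rose by 0.87 ± 0.31 (adjusted p = 0.0226), both by the authors' deposited table. Hsp22 stood at −0.46 ± 0.31 in the canonical mutant and −0.72 ± 0.31 in the H3.3 mutant, neither called. Calls in this list were 1 of 9 in the canonical mutant and 1 of 8 in the H3.3 mutant, both lower. In the combined mutant 1 of 8 was called higher and 1 lower, beside 11.4% and 13.6% of all loci. Moulting peptides and their receptors had 5 loci, with 5, 4 and 4 tested in the canonical, H3.3 and combined mutants. The authors' deposited tables called 0 in each mutant, beside 3.55%, 4.31% and 25.0% of all loci, with 0 at an unadjusted p under 0.05.

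Genes of moulting fluid, chitin and the apical matrix, on which the hormone response acts at a moult, had 31 loci, 30 of them tested. The authors' deposited tables called 4 lower in the canonical mutant, 2 lower in the H3.3 mutant, and 9 lower and 1 higher in the combined mutant. Over all loci the shares called lower were 0.505%, 1.65% and 13.6%, and the share called higher in the combined mutant was 11.4%. The chitinase gene Cht10 (2L, 22999564 to 23025915) fell by 1.15 ± 0.20, 0.71 ± 0.19 and 1.59 ± 0.20 in the canonical, H3.3 and combined mutants in the authors' deposited tables. The authors' deposited table put the chitin deacetylase gene Cda9 at −2.21 ± 0.25, the chitin-binding protein gene obst-A at −2.01 ± 0.26 and nw at −2.10 ± 0.30 in the combined mutant, each of them called. The list's median was 0.006, −0.10 and −0.18, beside −0.005, −0.01 and 0.003 for all loci.

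More midgut loci were called lower than higher in the mutants with changed H3.3. With both K9R changes the authors' deposited table called 6 of 11 midgut loci, all lower, with a median of −0.64. In the H3.3 mutant it called 3 of 11 lower and 1 higher, LManV at 0.47 ± 0.15, with a median of −0.33. Over all loci 1.65% were called lower and 2.66% higher in the H3.3 mutant. In the canonical mutant the authors' deposited table called 0 of 11, against 3.55% of all loci, with 2 at an unadjusted p under 0.05 and a median of −0.16. Called higher in the combined mutant were 2 of 7 muscle, 2 of 7 neuron and 1 of 4 fat body loci tested, and 0 of them lower, by the authors' deposited table. Over all loci tested there, 11.4% were called higher and 13.6% lower, and the muscle, neuron and fat body counts rest on few loci. In whole larvae fewer cells of a type and less RNA per cell cannot be told apart. The part of tissue makeup in the changes of ImpE1, ImpE2 and the regulators was not tested.

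**Figure D3:**
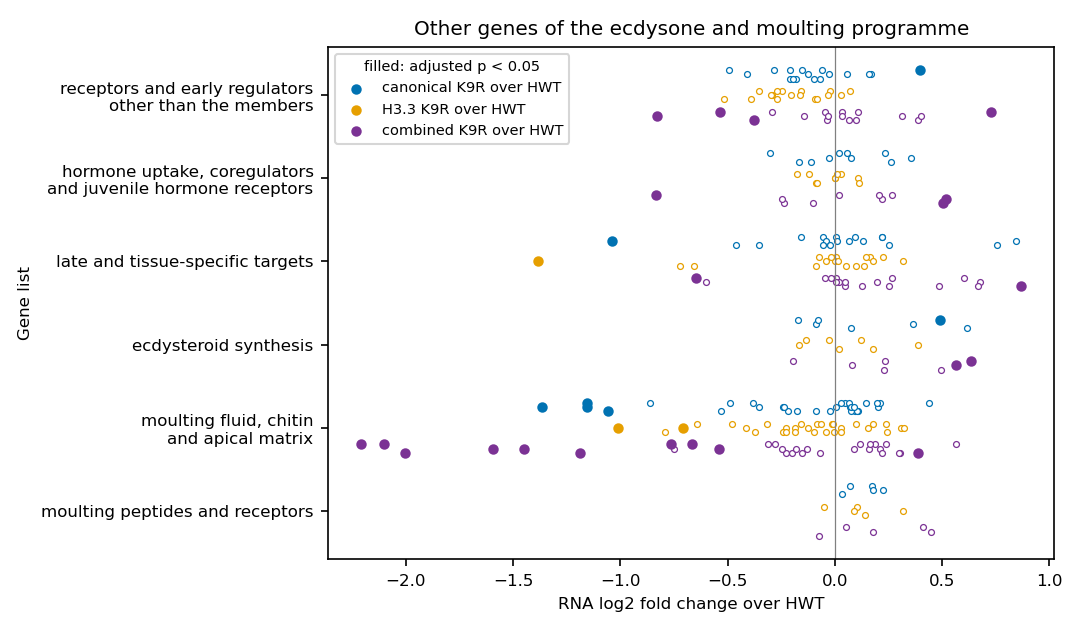
RNA log2 fold change over HWT of each measured locus in 6 lists of other ecdysone and moulting genes, by mutant, with filled points for adjusted p under 0.05 in the authors' deposited tables. Filled points below −1 in combined K9R belong to the list of moulting fluid, chitin and apical matrix, such as Cda9 at −2.21, and the lists of receptors, uptake and synthesis stay within 1 of 0.

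In wing discs of the 3rd instar, 133 of the genes' 138 regions were called in no H3.3 mutant, and 3 of the other 5 lay in Eip75B. The 138 regions were spread over Eip75B (41), EcR (28), Eip74EF (20), br (18), ftz-f1 (12), Hr4 (10), ImpL2 (5), ImpE1 (2), ImpE2 (1) and ImpE3 (1). In H3.3A-null the authors' deposited table called 5 of the 138, against 8.80% of 19733 regions. In H3.3B-K9R it called 1, against 6.53%, and in the double mutant 3, against 7.92%. In the double mutant over H3.3A-null the authors' deposited table called 1, against 6.50% of regions.

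The calls fell on 5 regions in 3 genes, 3.62% of the 138, while 14.3% of all regions were called in at least 1 comparison. The other 133 regions lay between −0.47 and 0.37 in every comparison over WT in the authors' deposited tables. A share below the background is stated here as a count, since regions of a gene share its sequence context and are not replicates. The median of the 138 regions was 0.06 in H3.3A-null, 0.05 in H3.3B-K9R and 0.008 in the double mutant, beside 0.004, −0.002 and 0.0002 for all regions. The 3 comparisons over WT share the yw libraries.

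**Figure D4:**
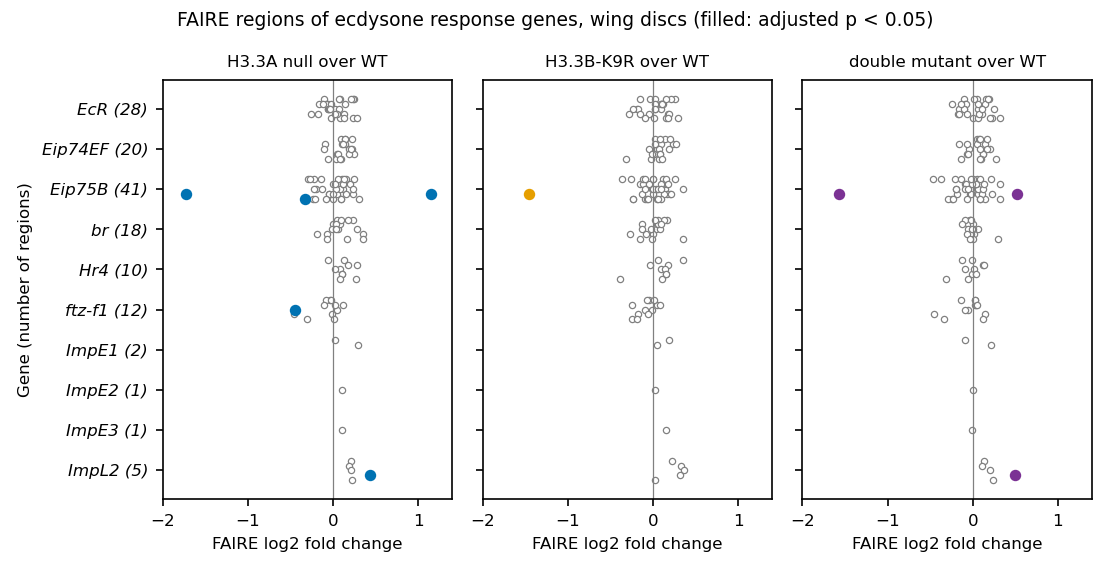
FAIRE log2 fold change over WT of each of the 138 regions by gene in H3.3A-null, in H3.3B-K9R and in the double mutant, with filled points for adjusted p under 0.05 in the authors' deposited tables. The lowest points, from −1.72 to −1.45, are 1 region of Eip75B in the 3 mutants, and the highest, at 1.15, is another Eip75B region in H3.3A-null.

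The strongest loss was at an Eip75B region of 321 bases (3L, 18054090 to 18054410), centred 10.4 kb inside the gene's end at 18064696. Its mean count over 12 libraries was 65.7 in the authors' deposited table, and the implied counts were 131 in WT, 39.7 in H3.3A-null, 47.9 in H3.3B-K9R and 44.2 in the double mutant. WT stood alone, 2.74- to 3.3-fold above the mutants. The region fell by 1.72 ± 0.17 in H3.3A-null (adjusted p = 6.65e-21), by 1.45 ± 0.17 in H3.3B-K9R (adjusted p = 2.86e-15) and by 1.57 ± 0.17 in the double mutant (adjusted p = 7.88e-18) in the authors' deposited tables. These were the 42nd, 25th and 40th lowest of 19733 fold changes. The double mutant over H3.3A-null, which uses no yw library, was 0.15 ± 0.19 (adjusted p = 0.993) by the authors' deposited table. Its low value in the mutants cannot be told apart from a high value particular to the yw libraries.

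A 2nd Eip75B region (3L, 18032835 to 18033288) behaved otherwise. Its implied counts were 66.8 in WT, 149 in H3.3A-null, 72.8 in H3.3B-K9R and 96.1 in the double mutant, so H3.3A-null was the highest and H3.3B-K9R was near WT. It rose by 1.15 ± 0.15, 2.22-fold, in H3.3A-null (adjusted p = 1.99e-12) and by 0.52 ± 0.16 in the double mutant (adjusted p = 0.0136) in the authors' deposited tables. The authors' deposited table had it at 0.12 ± 0.16 (adjusted p = 0.936) in H3.3B-K9R, not called. The authors' deposited table of the double mutant over H3.3A-null gave −0.63 ± 0.14 (adjusted p = 1.75e-04).

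A 3rd Eip75B region (3L, 18011491 to 18012626) fell by 0.33 ± 0.11 in H3.3A-null (adjusted p = 0.0215) and stood at −0.24 ± 0.11 and −0.29 ± 0.11 in H3.3B-K9R and the double mutant (adjusted p = 0.253 and 0.0701) in the authors' deposited tables. The Eip75B region with the highest mean count, 441 (3L, 18012979 to 18013910), lay 0.25 ± 0.09 and 0.26 ± 0.09 above WT in the single mutants and 0.08 ± 0.09 above it in the double, none called, in the authors' deposited tables. The RNA of Eip75B in 1st instar larvae with H3.3 K9R stood at 0.10 ± 0.10 in the authors' deposited table, at another stage and with a histone array.

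**Figure D5:**
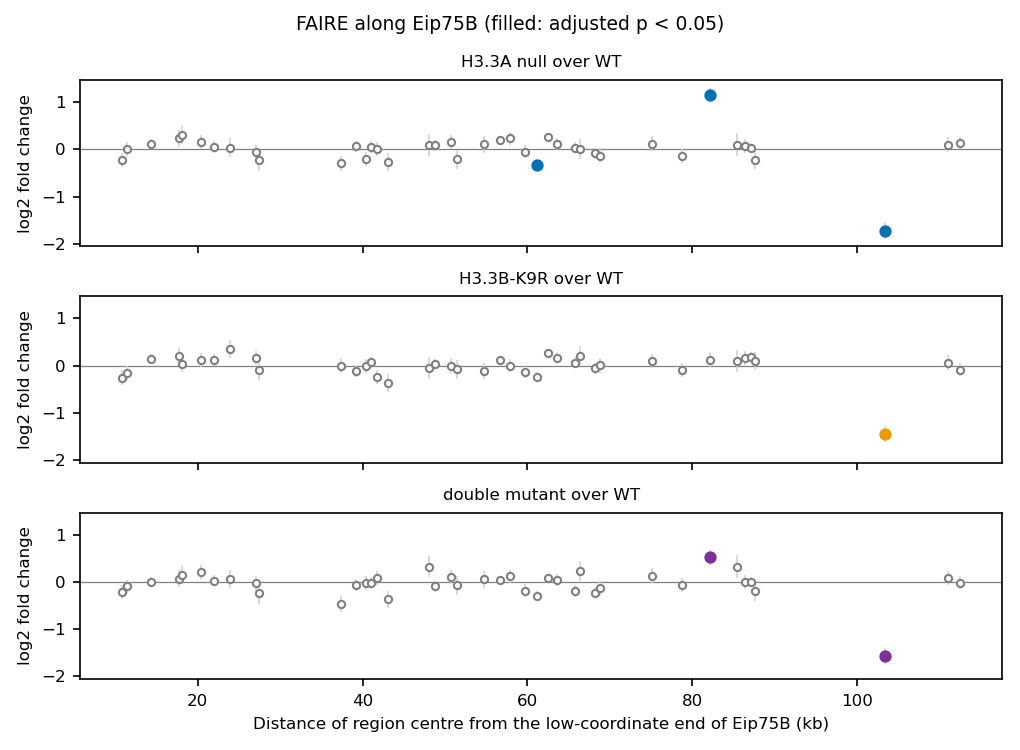
FAIRE log2 fold change over WT of the 41 regions of Eip75B against their distance in kb from the gene's lower end, by mutant, with bars of 1 standard error from the authors' deposited tables. The region near 103 kb lies low in all 3 mutants and the region near 82.1 kb lies high in H3.3A-null and the double mutant.

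The H3.3 mutants also form a crossed design, in which the H3.3B-K9R effect can be compared with and without H3.3A using tables that share no library. This difference was called for 3 of the 138 regions, against 4.85% of 19733 regions, and all 3 lie in Eip75B. At the region of strongest loss the effect of H3.3B-K9R was −1.45 with H3.3A and 0.15 without it, a difference of 1.61 ± 0.25 (adjusted p = 1.98e-08). At the region from 18032835 the difference was −0.75 ± 0.21 (adjusted p = 0.0119). At the Eip75B region with the highest mean count, from 18012979, it was −0.43 ± 0.13 (adjusted p = 0.0181).

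Outside Eip75B, 2 regions were called. An ImpL2 region (3L, 4233548 to 4234063) rose by 0.43 ± 0.13 in H3.3A-null (adjusted p = 0.0180) and by 0.50 ± 0.13 in the double mutant (adjusted p = 0.00340), with 0.32 ± 0.14 for H3.3B-K9R (adjusted p = 0.211), by the authors' deposited tables. All 5 ImpL2 regions lay above 0 in each mutant over WT. A ftz-f1 region (3L, 18786345 to 18786788) fell by 0.45 ± 0.15 in H3.3A-null (adjusted p = 0.0352) and stood at −0.09 ± 0.15 in both other mutants in the authors' deposited tables.

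Of the 6 genes called in RNA, ftz-f1 had the called FAIRE region given above, and ImpE1, ImpE2, Hr4, Eip74EF and EcR had none. No region was called in 7 of the 10 genes, which include br, not called in RNA, and ImpE3, not matched there. Over all regions, 14.3% were called in at least 1 comparison. The assays differ in stage, tissue and genotype, so RNA and FAIRE calls are not paired here. The one region of ImpE2 (3L, 3512600 to 3513085) spans an end of the gene, with a mean count of 189, and stood at 0.10, 0.03 and 0.01, each ± 0.12, in H3.3A-null, in H3.3B-K9R and in the double mutant by the authors' deposited tables. The region at an end of ImpE1 (3L, 8371919 to 8372477) stood at 0.02, 0.18 and −0.09, each ± 0.12, in the authors' deposited tables. The 10 Hr4 regions ranged from −0.39 to 0.35 over the mutants in the authors' deposited tables, and the one with the highest mean count (X, 1947047 to 1949050, 731) stood at 0.10, 0.15 and −0.01, each ± 0.09. The 20 Eip74EF regions ranged from −0.32 to 0.28 and the 28 EcR regions from −0.28 to 0.31 in the authors' deposited tables. Regions at a gene end of EcR, Eip74EF, Hr4, br, ftz-f1 and ImpE3 were not called either, and the largest of their values over WT was 0.16 ± 0.09, at br in H3.3B-K9R, in the authors' deposited table.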

How the data were processed

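RNA of whole larvae (12 libraries) and FAIRE of wing discs (12 libraries) were analysed from 3 RNA and 4 FAIRE tables, each the authors' own DESeq2 comparison. Genome build dm6 and the tools MACS2, DESeq2, bedtools 2.2.25.0, SAMtools 1.5, Cufflinks 2.1.1, TopHat2 2.1.1 and Bowtie2 2.3.2 are named, without their roles, in the submitters' processing notes. For the counting step and the gene annotation nothing is given in the sources used here. Per the file headers, the deposited values are a mean over libraries of normalised counts (a signal), a log2 fold change with its standard error on the log2 scale, a Wald statistic (a score), a p-value and an adjusted p-value. The authors' deposited standard errors reach at most 0.306 (RNA) and 0.267 (FAIRE), as shrunken fold changes do, so changes of low loci may be understated. An adjusted p-value was given for 8123 RNA loci in canonical K9R, 7634 in each other mutant and 19733 FAIRE regions, and missing ones were kept missing. No column held single libraries, so depth is unknown.

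Positions were made 1-based. Genes came from the RefSeq Release 6 gene table (dm6) and matched a locus at 50% or more of the joint span. A FAIRE region belonged to a gene when it overlapped it by at least 1 base. Strand was not used, so antisense reads are not separated, and regions at either gene end stand in for the 5′ end that the naming rule asked for. Implied counts solve the mean over 4 equal groups with the deposited fold changes, and carry any shrinkage of those. Differences between tables were tested by a two-sided z-test on the log2 fold changes, with squared standard errors summed and Benjamini-Hochberg adjustment over all 10072 loci with a p-value or all 19733 regions. In RNA the shared HWT libraries make that error too large, and an alternative took out 50% of the smaller squared error.

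Named were all 10 genes, their called, gene-end and highest-count FAIRE regions, up to 6 called loci per list, and the 5 loci nearest to ImpE2. Regions called in the crossed comparison, and Jon66Ci among midgut genes, follow from those. Members and lists were chosen with earlier results of these data known. Python 3.11.15, NumPy 2.4.6, pandas 2.3.3, SciPy 1.17.1 and matplotlib 3.10.9 were used.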

Additional observations from a re-analysis of the deposited data

Results flagged for a closer look

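In 3 FAIRE regions of Eip75B the effect of H3.3B-K9R differed according to whether H3.3A was present, by a test of the difference itself. These are 3 of 138 regions, a smaller share than the 4.85% of all 19733 regions called in that test. The values, as the log2 fold change of the double mutant over H3.3A-null minus that of H3.3B-K9R over WT, were 1.61 at the region from 18054090, −0.75 at the region from 18032835 and −0.43 at the region from 18012979. At the first of these, all 3 mutants lay at implied counts of 39.7 to 47.9 against 131 in WT, so that the value rests on the yw libraries. At the region from 18012979 no single comparison was called.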

How the results depend on the processing

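RNA calls of ImpE2, Hr4, Eip74EF and ftz-f1 kept their side of the threshold under other adjustments, centred fold changes and thresholds of 0.01 and 0.1. Other overlap limits change which genes are matched and not the values of a matched locus, so they are no test of these calls. ImpE1 and EcR in combined K9R lost their calls at 0.01, which left 4 of the 6 calls there. Over all results, 350 alternatives gave the same outcome, 5 were stronger, 8 weaker and 10 moved a count by more than 1.5 times, and none reversed. Only centring alters a fold change, so a reversal of sign could not occur in the other alternatives. The 350 include alternatives whose outcome was fixed in this way. With the shared control taken out of the error, 2 genes differed between combined and canonical K9R, 3 between combined and H3.3 K9R (ftz-f1 added, adjusted p = 0.0490), and 1, ImpE2, from the sum of the single mutants. In FAIRE a threshold of 0.01 left 2 regions in H3.3A-null, and a threshold of 0.1 gave 2 in H3.3B-K9R, 5 in the double mutant and 2 in the double over H3.3A-null. Genes extended by 2000 bases held 152 regions and gave 2 calls in H3.3B-K9R (near ImpL2, 0.55) and 2 in the double over H3.3A-null (near ImpE3, −0.54). With errors summed over 3 tables as if independent, the crossed comparison called 1 region, the one from 18054090. No paired analysis was possible because the tables hold no value of a single library, and leaving out replicates was not run for the same reason. Depth limits could not be set.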
